A study of Mus musculus with 70 samples.

Results

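The intermediate filament genes of sensory ganglia were taken as a set of 7: Nefl, Nefm, Nefh, Prph, Ina, Vim and Nes. Members were taken by gene symbol, through the array platform's annotation, and no measured value entered that rule. Earlier results of these data were known when the set was chosen. They are 7 of 11815 genes tested and are read by 8 of the 25697 probes on the array, since Nes has a pair of probes and each other gene has 1.

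Ganglia came from mice of 9 strains, which the labels call CAST, WSB, NZO, NOD, 129, AJ, DBA, C3H and C57. Each strain gave uninjured samples (NAIVE) and samples after axotomy, the cutting of the neurons' axons (AX5D, read here as 5 days after injury). A sample was total RNA pooled from 6 dorsal root ganglia (DRGs), which house the cell bodies of sensory neurons with their glia, taken from 3 mice, and the labels give no transgene, age or sex. Of the 18 groups, 16 held 4 arrays and 2, both AJ, held 3, so 35 naive and 35 axotomy arrays were compared, and the labels call the replicates biologically distinct.

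Intermediate filaments are rope-like polymers of coiled-coil proteins. In neurons the light, medium and heavy neurofilament subunits assemble together, fill the axon and set its calibre, and large myelinated sensory neurons are known for a high content of the heavy subunit. Peripherin is the filament protein of many small sensory neurons and alpha-internexin is a neuronal subunit prominent in young neurons. Vimentin and nestin are known from non-neuronal cells, vimentin from fibroblasts, macrophages and glia, and nestin from progenitor cells, muscle and some vessel and glial cells.

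The start regions of the genes are shown because 3 of them moved in the same direction after axotomy. These were Ina, Vim and, on the brighter of its probes, Nes, and Prph did not move with them. Regions of 250 bases before the start were available here for 4 of the 7 members, from RefSeq (GRCm38.p6), all on the plus strand. Capitals mark matches, on either strand, to TATAAA, the motif of a promoter's core box, to CCAAT and to GGGCGG, known as the GC box. TGANTCA (AP-1 site) and TGACGTCA (CRE) were searched as well.
Prph, chr15:99054924-99055173: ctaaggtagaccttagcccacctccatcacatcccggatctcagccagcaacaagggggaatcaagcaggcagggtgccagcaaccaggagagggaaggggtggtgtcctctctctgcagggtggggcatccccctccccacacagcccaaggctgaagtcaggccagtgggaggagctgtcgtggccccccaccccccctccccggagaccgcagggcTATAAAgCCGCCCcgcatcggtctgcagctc
Ina, chr19:47014431-47014680: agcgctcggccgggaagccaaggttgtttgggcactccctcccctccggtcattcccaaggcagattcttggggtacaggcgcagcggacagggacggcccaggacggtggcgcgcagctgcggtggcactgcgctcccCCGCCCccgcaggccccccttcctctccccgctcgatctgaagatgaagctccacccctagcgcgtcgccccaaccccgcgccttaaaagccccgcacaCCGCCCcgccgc
Vim, chr2:13574061-13574310: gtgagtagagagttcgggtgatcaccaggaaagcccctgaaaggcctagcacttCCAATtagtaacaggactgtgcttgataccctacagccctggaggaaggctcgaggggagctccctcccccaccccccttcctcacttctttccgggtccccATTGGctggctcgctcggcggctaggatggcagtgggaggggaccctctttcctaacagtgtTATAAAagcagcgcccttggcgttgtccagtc
Nes, chr3:87970843-87971092: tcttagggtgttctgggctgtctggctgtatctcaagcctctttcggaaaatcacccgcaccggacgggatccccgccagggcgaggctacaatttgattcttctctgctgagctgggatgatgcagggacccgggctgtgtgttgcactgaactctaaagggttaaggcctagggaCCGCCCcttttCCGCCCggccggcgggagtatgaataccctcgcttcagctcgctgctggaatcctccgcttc
TATAAA lay 31 to 26 bases before the start of Prph and 32 to 27 bases before that of Vim, and 12.4% of the 32851 mouse start regions of this length hold it. The other pair, Ina and Nes, held no TATAAA and 2 GC boxes each, a motif found in 32.7% of all start regions, and Prph held 1. Vim held CCAAT at 2 places, a motif present in 33.8% of all start regions. None of the 4 windows held these letters of an AP-1 site (6.75% of all) or a CRE (1.55%). The start used for Prph lies inside the span annotated for the gene. These matches describe letters in a window and do not show binding.

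Levels are given on the log2 scale after background correction and quantile normalization, and the response of a gene is its axotomy minus naive difference on that scale. Over the arrays, between 13147 and 14721 probes were above background (detection p-value below 0.05). Genes with no probe above background on at least 3 arrays were left out and are called not measured. Of 16 pan-neuronal markers 15 were measured and Snap25 was not. Skeletal muscle markers differed widely between arrays, with a summed level of 458 to 25494.6 on naive and 466 to 19852.2 on axotomy arrays. None of 9 passed the test of the mean response over strains. Their median response was -1.84 in DBA, -0.68 in NOD, 0.63 in C3H and 0.95 in NZO, and between -0.36 and 0.14 in the other strains. Their median naive difference from the other strains was 1.28 in DBA, 0.92 in NOD, -0.55 in WSB and -0.73 in NZO. The part of muscle tissue in the Nes levels and responses was not tested. Arrays in neighbouring columns of the intensity table, taken in 9 runs of 8 columns, resembled each other. For pairs of arrays from different groups, residuals correlated at 0.14 on average in the same run and at -0.02 in different runs. Every run held both treatments, but unevenly, from 2 naive and 6 axotomy arrays in run 3 to 7 naive and 1 axotomy array in run 9. In most runs no strain had both treatments. Values within runs, given below, were therefore taken after subtracting each strain's midpoint between its naive and axotomy means. Those midpoints draw on arrays of all runs, so the values do not compare treatments within a strain and run.

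Taken as a mean over the 9 strains, the neurofilament subunit genes Nefm and Nefh were lower after axotomy and Ina, Vim and Nes were higher. Nes was read by its brighter probe, and its dimmer probe gave a response of 0.11 (limma, adjusted p = 0.262). All 6 genes measured above background throughout passed the threshold (limma, adjusted p below 0.05), 3 lower and 3 higher, Prph by a small margin. The fit also called Nefl lower, but its probe was near background, and it is described apart and supports no count here. Of all genes tested 61.7% passed, 28.1% higher and 33.6% lower, so passing is common in this comparison and the sizes and directions carry the description. The median response of all genes was -0.03. Strain by strain, 29 of 63 gene and strain combinations passed (18 higher and 11 lower, 2 of the lower ones from Nefl), beside 28.4% of all such combinations. The share of all genes that passed was 31.8% in 129, 19.2% in AJ, 27.2% in C3H, 23.7% in C57, 30.5% in CAST, 33.5% in DBA, 24.9% in NOD, 27.4% in NZO and 37.6% in WSB. Fitted values had the same sign in all 9 strains for 5 of the 7 genes, Nefl included, as had 35.1% of all genes.

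**Figure D1:**
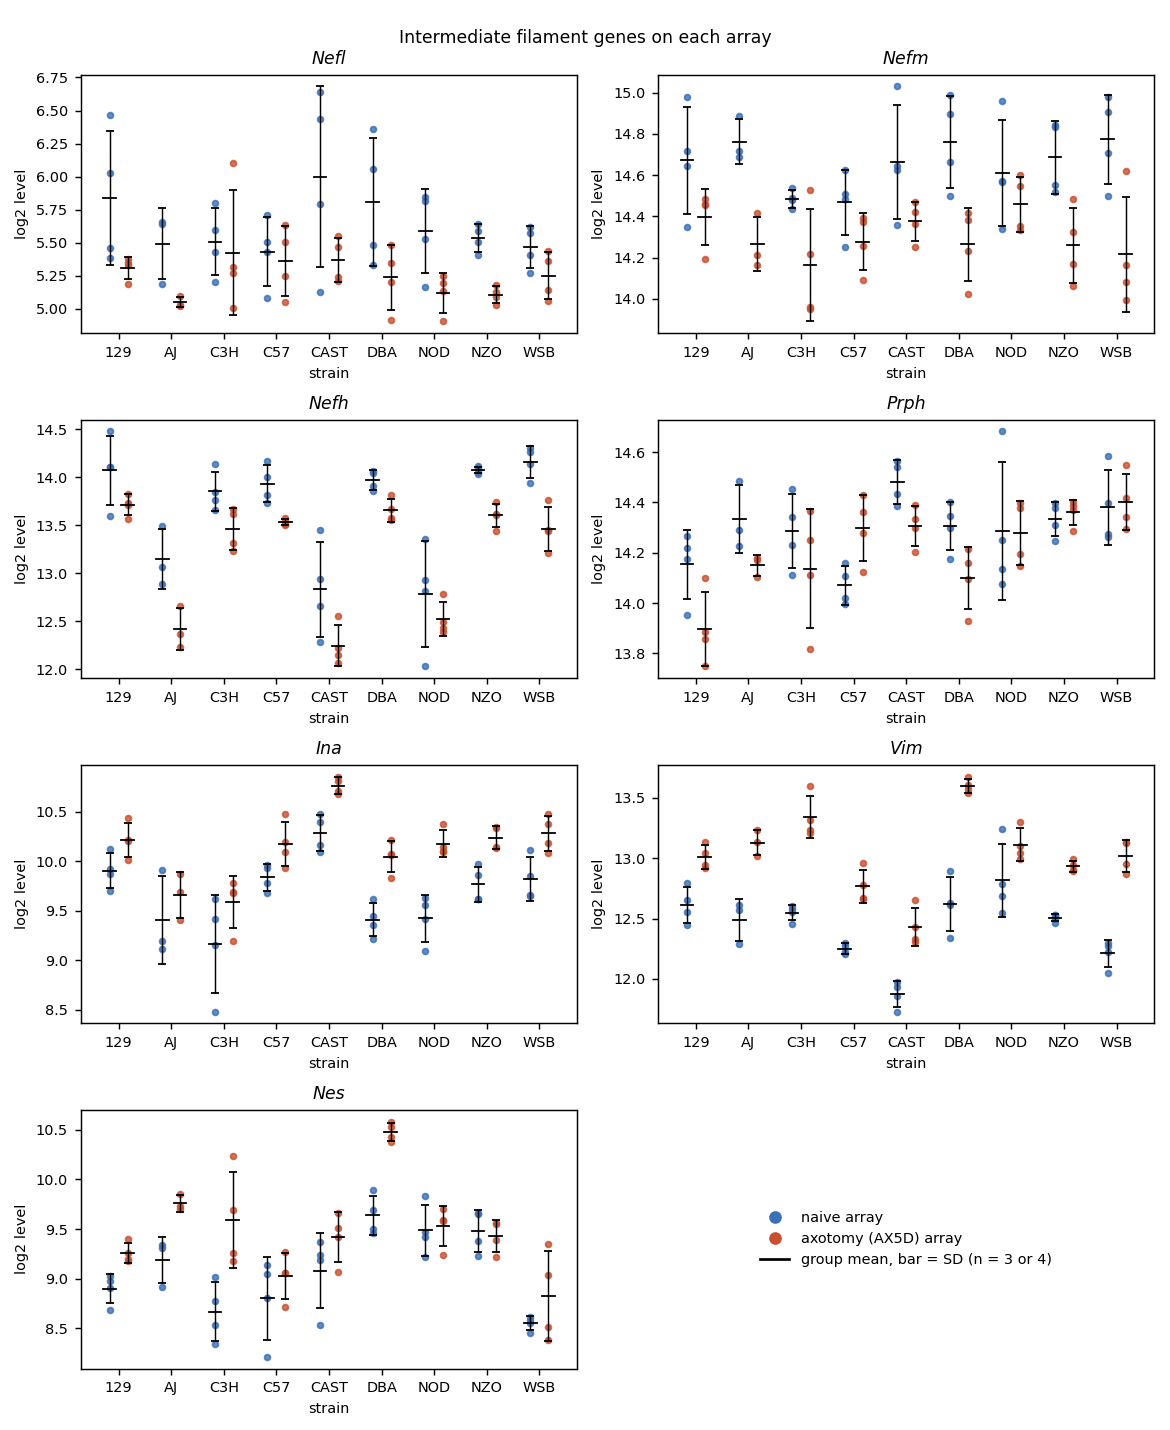
Log2 level (vertical axis) of the 7 filament genes on each array, by strain (horizontal axis), with naive arrays in blue and axotomy arrays in red. Black lines are group means and bars the SD over 3 or 4 arrays. Nefh sits lower in AJ, CAST and NOD than in the other 6 strains in both treatments, and Vim is higher after axotomy in every strain.

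**Figure D2:**
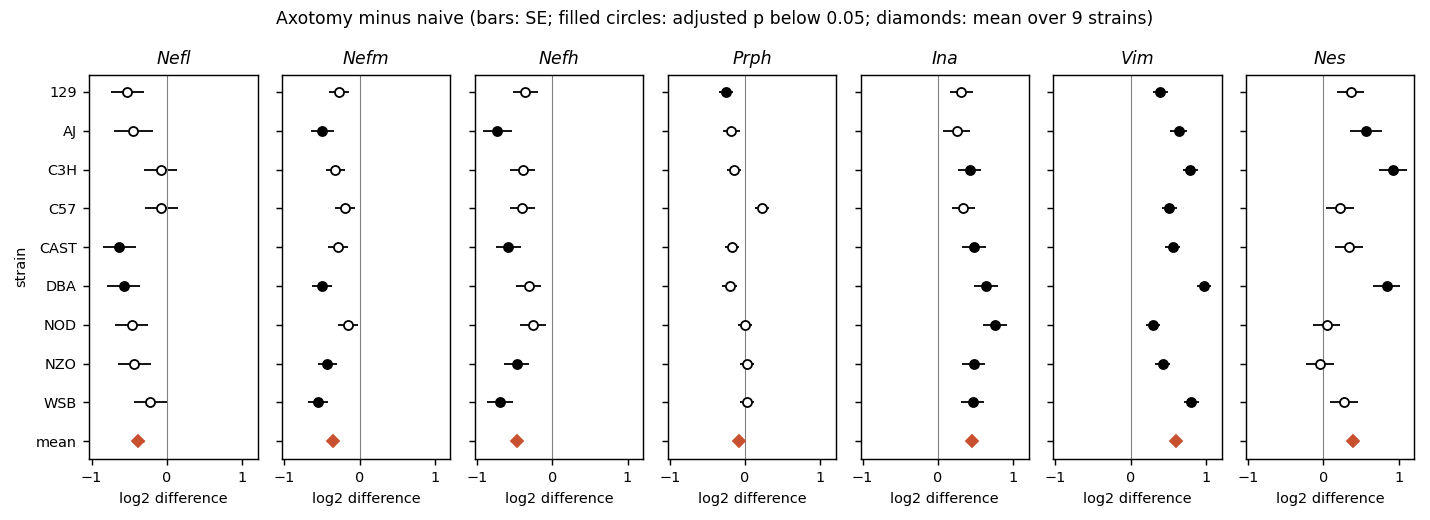
Response of each gene (horizontal axis, log2 difference, axotomy minus naive) in each strain and as the mean over 9 strains (diamonds), with bars for the SE. Filled circles passed an adjusted p of 0.05. Nefl, Nefm and Nefh lie below 0 and Ina and Vim above 0 in all 9 strains, while Prph lies on both sides.

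The light subunit gene Nefl (chr14:68083863-68089095), whose protein is the core of the neurofilament, was hardly measured. Its probe was above background on 7 of 35 naive and 1 of 35 axotomy arrays. Intensity before normalization was 216 at the lowest, 277 at the median and 356 at the highest on naive arrays, and 214, 266 and 321 on axotomy arrays, so the ranges overlap almost entirely. The fitted response was -0.38 (SE 0.08, adjusted p = 1.03e-05), lower in 9 of 9 strains but within runs between -0.58 and 0.06, higher in 2 of 9. Without background correction it was -0.11 (adjusted p = 4.84e-06). The gene entered the test mainly through its naive arrays, and a difference in that direction follows in part from the filter. Only in CAST did a bound exceed 1, at least 1.02-fold higher in naive ganglia, where 2 of 4 naive arrays and no axotomy array were above background. The fitted calls in CAST (-0.63, adjusted p = 0.0231) and DBA (-0.57, adjusted p = 0.0383) were each lost without any of 4 arrays. In CAST these were naive replicates 1 and 3 and axotomy replicates 1 and 4 (adjusted p 0.0604 to 0.183). In DBA they were naive replicates 1 and 4 and axotomy replicates 2 and 3 (0.0699 to 0.229), and in 129 a call appeared without naive replicate 2 (adjusted p = 0.0235) or 3 (0.0313). For the other 8 strains the probe gives no usable fold.

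The medium subunit gene Nefm (chr14:68119545-68125004) encodes a neurofilament protein with a long side arm. Its levels were 14.25 at the lowest, 14.63 at the median and 15.03 at the highest on naive arrays, and 13.95, 14.33 and 14.62 on axotomy arrays. The upper part of the naive range lay above every axotomy array, and the rest overlapped. Nefm fell by 0.36 on the log2 scale (SE 0.04, 1.28-fold lower, adjusted p = 1.98e-10), with a 95% interval of -0.44 to -0.27, and was lower in 9 of 9 strains and within all 9 runs (-0.42 to -0.18). The decrease passed the threshold in AJ, DBA, NZO and WSB. It was largest in WSB, where naive replicates 1 to 4 stood at 14.98, 14.91, 14.50 and 14.71 and axotomy replicates at 14.16, 14.08, 14.00 and 14.62. In WSB 1 axotomy array, replicate 4, reached into the naive range. The fold was 1.47 lower in WSB (adjusted p = 0.000378) and 1.41 lower in DBA (adjusted p = 0.0017).

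In AJ (-0.50) the Nefm call was lost without axotomy replicate 3 (adjusted p = 0.061) or naive replicate 1 (0.0725), and in NZO (-0.43) without axotomy replicate 3 (0.0539). A call appeared in 129 without naive replicate 3 (adjusted p = 0.029), in C3H without axotomy replicate 1 (0.0101) and in CAST without naive replicate 2 (0.0255). With runs as a block 129 (0.00194) and CAST (0.0253) passed, as they did with median scaling (0.0314 and 0.0122), and C3H passed with array weights (0.0314). Strains did not pass a test for different Nefm responses (F-test, adjusted p = 0.563). Neither did they for naive levels (adjusted p = 0.251) or levels after axotomy (0.506). Neighbouring strains overlapped at every step of the order, from WSB (14.77 ± 0.21, SD, n = 4) down to C57 (14.47 ± 0.16, n = 4) in naive ganglia and from NOD (14.46) down to C3H (14.16) after axotomy.

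The heavy subunit gene Nefh (chr11:4938754-4948064), whose long tail carries many phosphorylation sites, showed the largest decrease of the set and the largest strain differences of the 3 neurofilament genes. Its levels were 12.03 at the lowest, 13.86 at the median and 14.48 at the highest on naive arrays, and 12.06, 13.51 and 13.83 on axotomy arrays. These pooled ranges overlap because strains differ more than treatments. Nefh fell by 0.47 on the log2 scale as a mean over strains (SE 0.06, 1.38-fold lower, adjusted p = 1.01e-10), and was lower in 9 of 9 strains and in 8 of 9 runs (-0.80 to 0.01). In pooled tissue, fewer neurons of a type and less RNA per neuron cannot be told apart.

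In single strains the Nefh decrease passed the threshold in AJ, CAST, NZO and WSB. In WSB naive replicates 1 to 4 stood at 14.30, 14.26, 13.94 and 14.14 and axotomy replicates at 13.44, 13.76, 13.21 and 13.45. The WSB groups did not overlap, and the gene was 1.62-fold lower (adjusted p = 0.000543). In AJ it was 1.66-fold lower (adjusted p = 0.0037), a call lost without naive replicate 1 (adjusted p = 0.0656). The call in CAST (-0.59, adjusted p = 0.00479) was lost without naive replicate 3 (0.0886). That in NZO (adjusted p = 0.0281) was lost without axotomy replicate 3 (0.0901), naive replicate 4 (0.0549) or naive replicate 2 (0.058), and with runs as a block, where the difference was -0.20 (adjusted p = 0.26) in place of -0.47. Leaving out naive replicate 3 gave a call in 129 (adjusted p = 0.0193), and leaving out naive replicate 2 gave one in NOD (0.0149). With runs as a block, 129 (-0.38, adjusted p = 0.0148) and C3H (-0.41, 0.00764) passed as well. Median scaling added 129, C3H, C57 and DBA (adjusted p 0.00953 to 0.0339), array weights added C57 (0.0197), and fits to a strain's own arrays added C3H, C57 and DBA (0.00196 to 0.0305). The responses of the strains did not pass the test of a difference (F-test, adjusted p = 0.711).

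Nefh levels split the strains. Naive means fell from WSB (14.16 ± 0.16, n = 4) through NZO (14.08), 129 (14.07), DBA (13.97) and C57 (13.93) to C3H (13.85 ± 0.20), each overlapping the next. Then came a gap with no overlap, followed by AJ (13.15 ± 0.31, n = 3), CAST (12.83 ± 0.49, n = 4) and NOD (12.78 ± 0.56, n = 4), which overlapped each other. In AJ the naive arrays stood at 13.49, 13.06 and 12.89 (replicates 1 to 3). In CAST replicates 1 to 4 stood at 12.65, 12.28, 13.45 and 12.93, and in NOD at 12.81, 12.03, 12.93 and 13.36. No array of these 3 strains reached the lowest naive array of the other 6, at 13.60 in 129. The same 3 strains were lowest after axotomy, in the order NOD (12.52), AJ (12.41) and CAST (12.24), again with no overlap with C3H (13.46 ± 0.22) above them.

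From the highest to the lowest strain Nefh spanned 2.60-fold in naive ganglia and 2.76-fold after axotomy. The naive strain difference passed the F-test (adjusted p = 3.89e-14), as for 5 of the 7 members. In this test 59.4% of all genes passed. Against the mean of the other 8 strains, naive Nefh was 1.97-fold lower in NOD (adjusted p = 6.63e-09) and 1.89-fold lower in CAST (7.62e-09). In AJ it was 1.48-fold lower (0.00319), a call lost without naive replicate 3 (-0.43, adjusted p = 0.1). It was higher in WSB (0.58, adjusted p = 0.000266), NZO (0.48, 0.00319) and 129 (0.48, 0.00371), the last lost without naive replicate 4 (adjusted p = 0.0876). The call in DBA (0.36, 0.0428) was lost without any of its 4 naive arrays (adjusted p 0.0618 to 0.149). Apart from Nefl, 21 combinations of the 6 other members and the 9 strains passed against the other strains' naive mean, beside 20.9% of all genes and strains. Nefl was called higher in CAST (0.42, adjusted p = 0.0358), from a probe near background. That call was lost without naive replicate 1 (adjusted p = 0.264) or 3 (0.401). Of all genes, the share that passed was 17.8% in 129, 14.8% in AJ, 15.2% in C3H, 18.8% in C57, 45.1% in CAST, 13.9% in DBA, 19.6% in NOD, 18.9% in NZO and 24.1% in WSB. Differences between strains in the sequence under a probe were not tested.

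Large-diameter neuron markers, a list that includes the parvalbumin gene Pvalb, are given here beside Nefh. Their median naive difference from the other strains was 0.05 in AJ, 0.17 in CAST and -0.07 in NOD, where Nefh stood at -0.56, -0.92 and -0.97. These values stand side by side and their difference was not tested.

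The peripherin gene Prph (chr15:99053579-99058978) stayed close to its naive level. Levels were 13.95 at the lowest, 14.28 at the median and 14.68 at the highest on naive arrays, and 13.75, 14.25 and 14.55 on axotomy arrays, and the groups overlapped. The mean response was -0.08 (SE 0.03, adjusted p = 0.0301, 95% interval -0.14 to -0.01), lower in 6 strains and higher in 3, and between -0.27 and 0.15 within runs, higher in 2 of 9. This call was lost with runs as a block (-0.05, adjusted p = 0.119), with array weights (0.0862) and without any of 5 strains, 129, AJ, C3H, CAST or DBA. It was also lost without C3H axotomy replicate 2 (adjusted p = 0.0544), AJ naive replicate 2 (0.0569) or NOD naive replicate 4 (0.0549).

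Strain values of Prph ran from -0.26 in 129 to 0.23 in C57. In 129 naive replicates 1 to 4 stood at 14.22, 14.18, 13.95 and 14.27 and axotomy replicates at 13.75, 13.86, 13.89 and 14.10, so naive replicate 3 lay inside the axotomy range. That decrease passed (adjusted p = 0.0298), but not without naive replicate 1, 2 or 4 or axotomy replicate 1, 2 or 3 (adjusted p 0.0541 to 0.128). In C57 naive replicates 1 to 4 stood at 14.11, 14.16, 14.00 and 14.02 and axotomy replicates at 14.43, 14.36, 14.28 and 14.12. The C57 groups overlapped at 1 axotomy array, and the difference did not pass (adjusted p = 0.0703), though it did without that array, replicate 4 (0.0303), with runs as a block (0.25, 0.0245), with array weights (0.26, 0.00551) and with C57 arrays alone (0.0301).

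The F-test for different Prph responses gave an adjusted p of 0.0721. It passed with runs as a block (0.0178) and with array weights (0.00785). It also passed without any 1 of 7 arrays, which were 129 naive replicate 3, 129 axotomy replicate 4, C3H axotomy replicates 2 and 4, C57 axotomy replicate 4, WSB naive replicate 1 and NOD naive replicate 4 (adjusted p 0.0108 to 0.0463). Naive levels differed between strains (F-test, adjusted p = 0.0076), from CAST (14.48 ± 0.09) down to C57 (14.07 ± 0.08), with overlap between all neighbours. That test was lost without C57 (adjusted p = 0.139) or CAST (0.0877). C57 was lower than the other strains (-0.25, adjusted p = 0.00681; 0.0829 with median scaling) and CAST higher (0.21, 0.0105; 0.06 without naive replicate 4).

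The alpha-internexin gene Ina (chr19:47014681-47025327) rose while Nefm and Nefh, with whose proteins alpha-internexin can assemble, fell. Its levels were 8.48 at the lowest, 9.66 at the median and 10.48 at the highest on naive arrays, and 9.20, 10.14 and 10.86 on axotomy arrays, with overlap across strains. The response of Ina was an increase of 0.46 (log2, SE 0.05, 1.37-fold, adjusted p = 1.82e-11), and was higher in 9 of 9 strains and within all 9 runs (0.33 to 0.58). Strains did not pass the test of different responses (F-test, adjusted p = 0.674).

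The increase in Ina passed the threshold in 6 strains. In NOD naive replicates 1 to 4 stood at 9.63, 9.55, 9.42 and 9.09 and axotomy replicates at 10.14, 10.10, 10.38 and 10.09. The NOD groups did not overlap (1.69-fold, adjusted p = 0.000103), nor did those in DBA (1.56-fold, adjusted p = 0.000744). The call in C3H (0.42) was lost without naive replicate 2 or 4 or axotomy replicate 1, 3 or 4 (adjusted p 0.0652 to 0.408), with runs as a block (0.0933) and in further settings given with the alternatives. Calls were also lost in CAST without naive replicate 2 (adjusted p = 0.0555) or with runs as a block (0.0838). In NZO the call was lost without naive replicate 2 or 4 or axotomy replicate 2 or 3 (0.0512 to 0.0598), and in WSB without naive replicate 2 or 3 or axotomy replicate 2 (0.0535 to 0.0618).

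CAST had the highest Ina level in both treatments. Its naive mean was 10.28 ± 0.18 (n = 4), overlapping 129 (9.90 ± 0.18), and its axotomy arrays at 10.81, 10.68, 10.71 and 10.86 (replicates 1 to 4) all lay above every array of the next strain, WSB (10.28 ± 0.18). C3H was lowest, at 9.17 ± 0.50 naive and 9.59 ± 0.26 after axotomy. The span was 2.17-fold naive (F-test, adjusted p = 1.07e-07) and 2.26-fold after axotomy. Naive CAST was 1.61-fold higher than the other strains (adjusted p = 1.22e-06). Naive C3H was 1.48-fold lower (0.000213), a call lost without naive replicate 4 (-0.33, 0.0538), and AJ was called lower without naive replicate 1 (-0.55, adjusted p = 0.0107) and with array weights (-0.36, 0.0213). Array weights also gave a lower call in DBA (-0.30, 0.0295), and runs as a block gave one in NOD (-0.31, 0.0357).

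The vimentin gene Vim (chr2:13574311-13582826) had the largest increase of the set. Levels were 11.73 at the lowest, 12.50 at the median and 13.24 at the highest on naive arrays, and 12.31, 13.02 and 13.67 on axotomy arrays. The response of Vim was an increase of 0.60 (log2, SE 0.03, 1.52-fold, adjusted p = 5.98e-25), and within runs by 0.39 to 0.75. It was among 1036 of the 11815 genes that passed in all 9 strains, counted in either direction. The lowest increase was in NOD (0.30, adjusted p = 0.0181), and this call was lost without naive replicate 1 (0.148), naive replicate 3 (0.0772) or axotomy replicate 3 (0.108), and with runs as a block (0.0698).

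The size of the Vim increase differed between strains (F-test, adjusted p = 0.00093), 1 of 2 members to pass this test, with Nes, beside 16.2% of all genes. In DBA naive replicates 1 to 4 stood at 12.63, 12.90, 12.61 and 12.34 and axotomy replicates at 13.57, 13.61, 13.67 and 13.54. The DBA groups lay far apart, with a difference of 0.98 (SE 0.10, 1.97-fold, adjusted p = 6.31e-13). Against the mean response of the other 8 strains DBA was higher by 0.42 (SE 0.10, adjusted p = 0.0102), the only 1 of 63 combinations to pass, beside 3.12% of all genes and strains and 2.49% of all genes in DBA. That call was lost without DBA naive replicate 4, the lowest of its group (0.33, adjusted p = 0.107), and with median scaling (0.37, 0.117). NOD stood at -0.34 against the others (adjusted p = 0.0974) and passed without naive replicate 1 (-0.43, 0.026), and C57 passed for Prph without axotomy replicate 4 (0.40, adjusted p = 0.0336), with array weights (0.35, 0.00574) and with runs as a block (0.34, 0.0479).

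Vim levels also differed between strains (F-test, adjusted p = 7.9e-12 naive and 1.17e-14 after axotomy, where 63.7% of all genes passed). CAST was lowest and overlapped no neighbour, at 11.87 ± 0.11 naive against 12.21 ± 0.11 in WSB, and at 12.43 ± 0.16 after axotomy against 12.77 ± 0.14 in C57. DBA was highest after axotomy, at 13.60 ± 0.06, overlapping C3H (13.34 ± 0.18), and NOD was highest before, at 12.81 ± 0.30. Against the other strains naive Vim was 1.55-fold lower in CAST (adjusted p = 4.16e-11) and 1.34-fold higher in NOD (5.83e-06). It was lower in WSB (-0.25, 0.00656), a call lost without naive replicate 4 (0.0869). The calls in C57 (-0.21, 0.0357) and DBA (0.21, 0.0464) were lost without any of the 4 C57 naive arrays (0.0587 to 0.117) and without DBA naive replicate 1, 2 or 3 (0.112 to 0.44). Naive 129 was called higher without naive replicate 3 (0.25, adjusted p = 0.0263), with median scaling (0.0117), the stricter filter (0.0422), array weights (0.00308) and runs as a block (0.0478).

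The nestin gene Nes (chr3:87971093-87980451) rose unevenly. On its brighter probe levels were 8.22 at the lowest, 9.14 at the median and 9.89 at the highest on naive arrays, and 8.38, 9.40 and 10.58 on axotomy arrays. The mean response was 0.39 (SE 0.06, 1.31-fold, adjusted p = 1.56e-07), higher in 8 strains and at -0.05 in NZO, and 0.02 to 0.74 within runs. In DBA naive replicates 1 to 4 stood at 9.50, 9.70, 9.89 and 9.46 and axotomy replicates at 10.58, 10.37, 10.52 and 10.43. Every DBA axotomy array lay above every array of any other strain and treatment (1.79-fold within DBA, adjusted p = 0.00017).

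In C3H naive Nes stood at 8.78, 9.02, 8.34 and 8.53 (replicates 1 to 4) and after axotomy at 9.70, 10.23, 9.18 and 9.26. The C3H groups did not overlap, and the gene was 1.90-fold higher (adjusted p = 5.16e-05), although the axotomy arrays were spread widely. The call in AJ (0.57, adjusted p = 0.0491) was lost without any of its 6 arrays (0.0558 to 0.235). The F-test for different responses passed (adjusted p = 0.0306) but not with median scaling (0.0656) or without C3H, DBA, NOD or NZO (0.0542 to 0.129). It was also lost without C3H naive replicate 3 or 4, C3H axotomy replicate 1 or 2, DBA naive replicate 4 or NZO axotomy replicate 1 (0.0503 to 0.0661).

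The other Nes probe was dimmer, above background on 33 of 35 naive and 34 of 35 axotomy arrays, and differed from the brighter one. In a fit over all 17616 kept probes its mean response was 0.11 (SE 0.09, adjusted p = 0.262). In DBA it was higher by 0.73 (adjusted p = 0.0225), as on the brighter probe, but in C3H it stood at -0.06 (adjusted p = 0.91). The rise in C3H therefore rests on 1 probe.

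On the brighter probe Nes levels ran from DBA (9.64 ± 0.20) to WSB (8.55 ± 0.07) in naive ganglia, with overlap between neighbours. After axotomy they ran from DBA (10.48 ± 0.09) to WSB (8.82 ± 0.45), a span of 3.15-fold, and DBA did not overlap AJ, the next strain (9.76 ± 0.08, n = 3). On this probe naive DBA was 1.53-fold higher than the other strains (adjusted p = 0.000608) and naive WSB 1.52-fold lower (0.000495). C3H was lower (-0.47, 0.011), a call lost without naive replicate 3 (0.132) or 4 (0.0654), and NOD was higher (0.45, 0.014; 0.151 without naive replicate 3). NZO was higher (0.44, 0.0166), a call lost without naive replicate 3 (0.1) or 1 (0.0958). C57 was called lower without naive replicate 2 (-0.43, 0.0479) and with array weights (-0.35, 0.0305). The dimmer probe gave another naive order, with DBA at 6.44 ± 0.28 and WSB at 6.59 ± 0.44. After axotomy DBA was highest there too (7.17 ± 0.31), but C57 was lowest (6.12 ± 0.28) and WSB stood at 6.67 ± 0.14. Strain levels on the dimmer probe were not tested.

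Responses of the members were compared pair by pair over the 9 strains with an exact sign-flip permutation test, two-sided, whose smallest p is 0.00390625, adjusted over 21 pairs. Responses differed in 16 pairs, 4 of which involve Nefl and have no measured response of that gene behind them. Nefm and Nefh each lay below Ina, Vim and Nes in 9 of 9 strains, both lay below Prph, and Prph lay below Ina and Vim in 9 of 9 (adjusted exact p = 0.00631 for each pair). Vim rose more than Nes by 0.21 (SE 0.07), in 8 of 9 strains (adjusted exact p = 0.0273). Nes exceeded Prph by 0.47 in 7 of 9 strains (adjusted exact p = 0.0308). All pairs with Nes rest on its brighter probe. The 5 pairs that did not pass were the 3 among the neurofilament genes, Ina with Vim and Ina with Nes. Nefh stood below Nefm by 0.11 (SE 0.05) in 8 of 9 strains (adjusted exact p = 0.0579), and Ina below Vim by 0.14 (SE 0.09) in 7 (adjusted exact p = 0.191).

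Replicate arrays of a group also showed which genes varied together. After subtracting group means, 21 pairs were correlated over 70 arrays, with p from 100000 permutations within groups and adjusted over the pairs. By Pearson's r 6 pairs passed. Nefm and Nefh gave r = 0.59 (adjusted permutation p = 0.00126) and rho = 0.61 (0.00021), and r = 0.58 without the 2 most extreme arrays. With run means removed r was 0.14. Nefh and Prph gave r = 0.52 (0.00556; rho 0.45, 0.0107; r = 0.50 without 2 arrays) and 0.23 with runs removed. Ina and Vim ran in opposite directions, with r = -0.39 (0.0185) and rho = -0.33 (0.0799), r = -0.37 without 2 arrays and -0.46 with runs removed. The other 3 pairs that passed were Nefm with Prph (r = 0.37, adjusted permutation p = 0.0467; -0.11 with runs removed), Nefl with Nefm (0.48, 0.0156; 0.04) and Nefl with Nefh (0.44, 0.0467; -0.03), the last 2 from a probe near background. Apart from Ina with Vim, the 5 other relations were weaker or gone with runs removed.

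Likeness to other genes was taken as Pearson's r over the 18 group means, as a description. Nefm was most like S100b (0.97), a calcium-binding protein gene, Nap1l5 (0.95) and Ndufs3 (0.95), a subunit of respiratory complex I. Nefh was most like Pip4p2 (0.97), a phosphoinositide phosphatase gene, Lrrc46 (0.91) and Tmem132c (0.89). Ina was most like Csgalnact1 (0.90), which starts chondroitin sulfate chains, Ralgps2 (0.90) and Gabpb1 (0.89). Vim was most like Sec22b (0.91), a vesicle trafficking gene, Mrgprf (0.91) and Fos (0.91), an immediate early transcription factor. Nes was most like Il11 (0.85), a cytokine gene, Emp2 (0.83) and Eva1b (0.82), Prph like Tom1 (0.83), Cep63 (0.78) and Zfp428 (0.77), and Nefl like Ldb3 (0.88), Pard6a (0.87) and B230217C12Rik (0.87). Groups share strains and treatments, so the points are not independent.

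**Figure D3:**
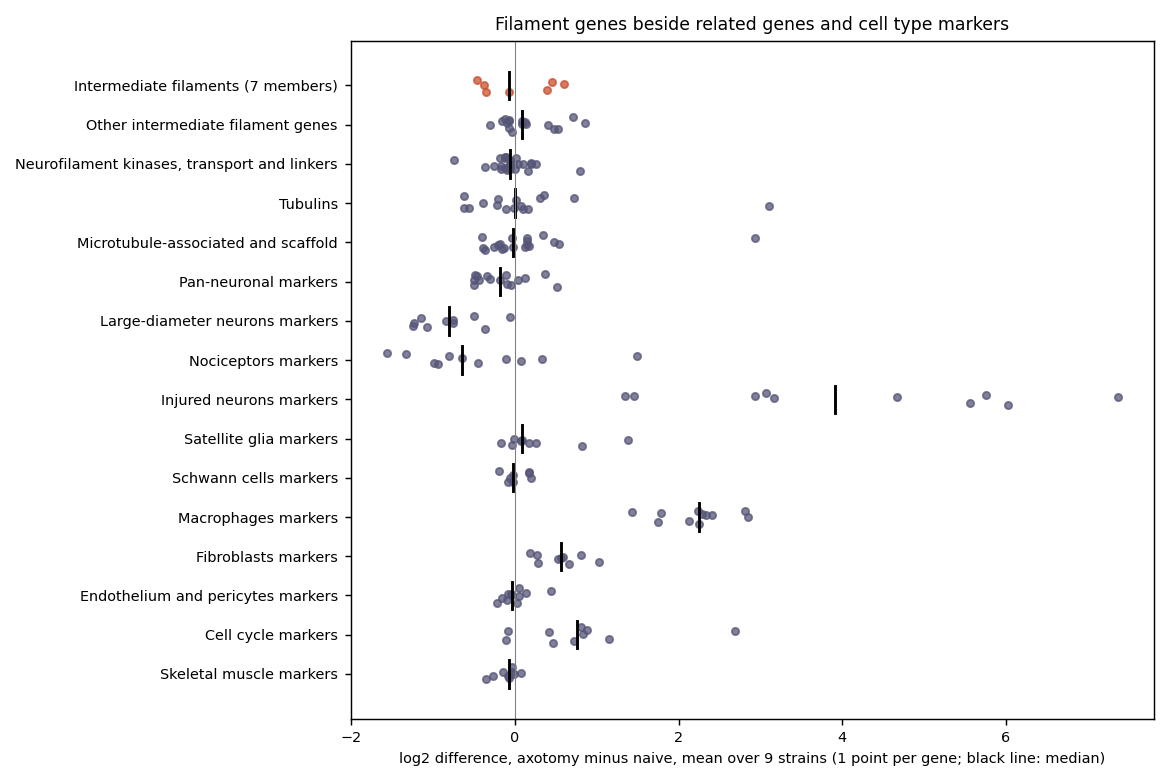
Mean response over 9 strains (horizontal axis, log2 difference, axotomy minus naive) of the 7 filament genes (red) and of each measured gene of 15 lists (rows), with black lines for list medians. The filament genes lie between -0.47 and 0.60, while injured neuron markers have a median of 3.92 and macrophage markers of 2.25.

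Of 22 other intermediate filament genes, 17 were measured, and 6 were higher and 2 lower after axotomy, with a median response of 0.08. Lmna, which encodes the nuclear lamins A and C, rose by 0.40 (SE 0.03, adjusted p = 1.9e-18). The 6 include Gfap, the filament of reactive glia, and the keratin genes Krt14 and Krt19, which were near background. Of 35 naive and 35 axotomy arrays, Gfap was above background on 3 and 17, Krt14 on 11 and 17 and Krt19 on 0 and 9. Krt19 entered the test only through axotomy arrays, and Gfap and Krt14 were more often above background there, so no fold is given. The count of 6 and the median rest in part on these 3 genes.

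Among 26 measured genes of neurofilament kinases, phosphatases, turnover, transport and linkers, 6 were higher and 11 lower, with a median of -0.06. Hspb1, a small heat shock protein gene, rose by 0.80 (SE 0.05, adjusted p = 3.05e-24) and Ppp2ca, the catalytic subunit of phosphatase 2A, by 0.20 (4.68e-16). Kif5a, the motor that carries neurofilaments, fell by 0.37 (SE 0.03, adjusted p = 2.99e-19) and Mapk10, a JNK kinase gene, fell by 0.74 (3.64e-13).

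The other cytoskeletal genes also went both ways. Of 16 tubulin genes 7 were higher and 7 lower, with a median of 0.00. Tubb6 rose by 3.11 (SE 0.06, adjusted p = 4.58e-49) and Tubb2b by 0.31 (1.38e-25), while Tuba4a fell by 0.63 (5.05e-21) and Tubg2 by 0.56 (2.85e-27). Of 19 microtubule-associated and axonal scaffold genes 7 were higher and 8 lower (median -0.03). Stmn4, a stathmin that binds tubulin, rose by 2.93 (SE 0.07, adjusted p = 6.98e-43) and Map6, a microtubule stabiliser, by 0.53 (1.6e-23). Mapt, which encodes tau, fell by 0.37 (adjusted p = 1.33e-16) and Epb41l3 by 0.26 (2.91e-17).

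Markers of neurons changed beside the members. Of 15 pan-neuronal markers 10 were lower and 3 higher (median -0.18), with a summed level of 171745 to 212158 on naive and 146527 to 204353 on axotomy arrays. Rbfox3 (NeuN), Syt1 and Tlx3 fell by 0.48, 0.46 and 0.51 (adjusted p = 1.46e-26, 1.03e-18 and 1.56e-18), and Elavl3, which encodes an RNA-binding protein of neurons, rose by 0.51 (1.48e-21). Of 10 large-diameter neuron markers 9 were lower (median -0.80), among them the potassium channel gene Kcna2 (-1.23, adjusted p = 4.77e-37), the sodium channel subunit gene Scn4b (-0.76, 3.52e-32), Whrn (-1.08, 1.73e-28) and Pvalb (-0.76, 5.99e-28). Their summed level was 34441.8 to 51182.2 on naive and 21322.5 to 32526.8 on axotomy arrays, and Runx3 was not measured. Of 11 nociceptor markers 8 were lower and 2 higher (median -0.65), and Trpa1 was not measured. The summed level of the 11 was 49677.7 to 65898.7 on naive and 28723 to 49052.1 on axotomy arrays. All 10 injured neuron markers rose (median 3.92), with a summed level of 7874 to 13945.5 naive and 78956.5 to 118684 after axotomy, and Atf3 at 5.56 and Flrt3 at 3.16. Npy and Ecel1 were called too, but were above background on 26 and 8 of 35 naive arrays, against all 35 after axotomy, so their fitted differences are not given as folds. The part of these changes in the neurofilament decrease was not tested.

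Beside the increases of Vim and Nes, all 11 macrophage markers rose (median 2.25), led by the complement genes C1qc (2.84, adjusted p = 2.74e-48), C1qb (2.82) and C1qa (2.41) and by Mrc1 (2.25). Their summed level was 1588 to 4970 on naive and 7871 to 26571.5 on axotomy arrays, and Itgam was not measured. All 9 fibroblast markers rose (median 0.56), with Lum at 1.03, Col1a1 at 0.81, Col5a1 at 0.66 and Pdgfra at 0.56, and their summed level was 13917.8 to 37285.3 naive and 19730.6 to 46309.1 after axotomy. Of 10 cell cycle markers the fit called 8 higher (median 0.76), Prc1 by 2.69 and Mcm6 by 1.15. Their summed level was 1226 to 2251 naive and 2108 to 7198 after axotomy. Top2a, among the 8, was above background on 0 naive and 22 axotomy arrays, so it entered the test only through axotomy arrays. Cdk1 was above background on 15 and 35 arrays and Cdc20 on 23 and 33. The count and the median rest in part on such genes. Ccna2 and Ccnb2 were not measured. Of 9 satellite glia markers 4 were higher and 1 lower (median 0.09). Aldh1l1 stood at 1.39, Entpd2 at 0.82, Ednrb at 0.18 and Gja1, the lower one, at -0.17. The summed level of the 9 was 32729.2 to 51153.5 naive and 34584.7 to 54432.5 after axotomy. Schwann cell markers (3 higher and 2 lower of 8) and endothelial and pericyte markers (1 higher and 2 lower of 11) had medians of -0.03. Mal stood at 0.20 and Ngfr at -0.20 among the former. Among the latter Vwf stood at 0.44, Rgs5 at -0.22 and Flt1 at -0.09. Their summed levels were 66698.9 to 95586.5 naive and 65839.1 to 92839 after axotomy for Schwann cells, and 5483 to 13116.8 and 5367 to 12192.4 for vessels.

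By strain, the fibroblast median response was 0.69 in DBA and 0.31 in NOD, the highest and lowest strains for Vim, and the macrophage median was 2.34 and 1.80. In CAST the fibroblast median was 0.88 and the macrophage median 2.85, with a Vim response of 0.56. The cell cycle median was highest in DBA, at 1.21, and lowest in NOD, at 0.36. The part of these cell types in the Vim and Nes responses was not tested.

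**Figure D4:**
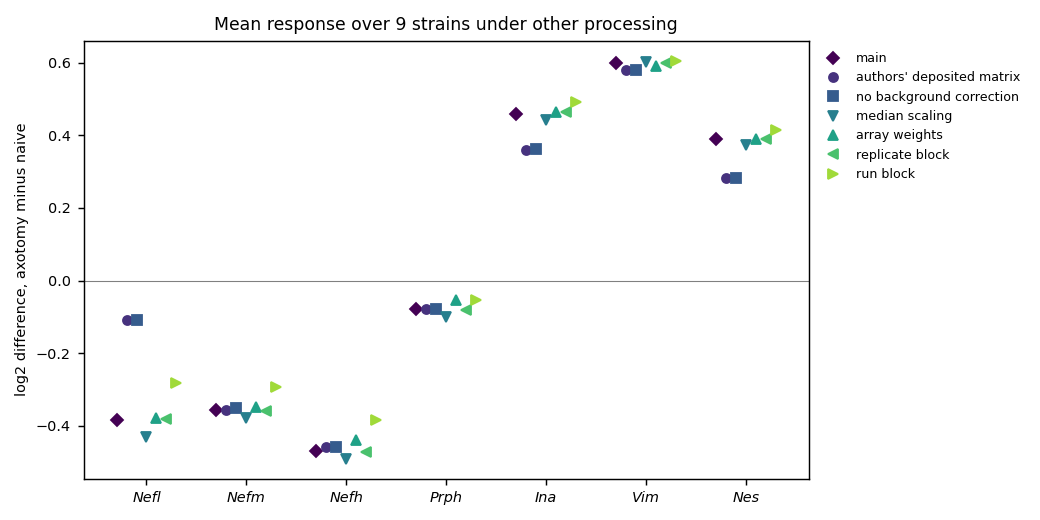
Mean response over 9 strains (vertical axis, log2 difference, axotomy minus naive) of each gene under the main processing and 6 alternatives (symbols). Nefl moves from -0.38 to -0.11 without background correction, Prph stays between -0.10 and -0.05, and the direction of each gene is the same in all 7 settings.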

How the data were processed

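Per the labels, biotinylated cRNA made from total RNA of mouse DRGs was read on Illumina arrays. The authors deposited an intensity on a linear scale, not normalized, and a detection p-value for each of 25697 probes, per the file headers, and a matrix of log2 values. That deposited log2 matrix differed from quantile-normalized log2 intensities without background correction by at most 0.027. The scanner software was not given in the sources used here. Of 72 intensity columns, 2 match none of the labelled samples and were left out.

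With limma 3.58.1 (R 4.3.3), background was estimated from the detection p-values and removed, 16 was added, and log2 values were taken after quantile normalization. Removing background widens the differences of dim probes. Probes with a detection p-value below 0.05 on at least 3 arrays were kept (17616), and the brightest probe stood for each gene (11815 genes). Limma fitted 1 mean per strain and treatment, with moderated variances (residual degrees of freedom 52, prior 8.60). Tests were two-sided and adjusted by Benjamini-Hochberg over all genes, with a threshold of 0.05. Strain differences were tested by moderated F-tests and by a strain against the mean of the other 8. The fit was tested on simulated data. Precision is limited by the number of arrays, which have no read depth.

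The members, gene lists and runs of columns were chosen with earlier results of these data known. The text names all 7 members, from each list up to 4 genes whose mean response had the smallest adjusted p, and the 3 genes most like each member. Samples were not treated as paired by replicate number. Same-numbered naive and axotomy arrays had residual correlations of -0.19 to 0.39 (median 0.03), and 11 of 34 were over 0.1. As alternatives, the authors' matrix, uncorrected background, scaling by medians, other filters, all kept probes, weighted arrays, replicate or run blocks, a fold of at least 1.2, a strain alone, and the removal of each array or strain were tried.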

Additional observations from a re-analysis of the deposited data

Results flagged for a closer look

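Within groups of 4 arrays, 128 sets of values were checked for an array that stood apart, and 2 did, while chance gives about 1 in 20. Nefm on 129 axotomy replicate 1 stood at 14.19 and the other 3 arrays at 14.46 to 14.48, a gap of 0.909 of the group's range. The dimmer Nes probe on CAST naive replicate 2 stood at 5.88 and the others at 6.73 to 6.82 (gap 0.912).

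Responses differed between strains for 2 members. For Vim the F-test gave an adjusted p of 0.00093 with strain responses from 0.30 in NOD to 0.98 in DBA, and for Nes 0.0306 with -0.05 in NZO to 0.92 in C3H on the brighter probe. The other Nes probe stood at -0.06 in C3H (adjusted p = 0.91), and the Nes F-test was lost with median scaling (0.0656). The Vim response in DBA exceeded the mean of the other strains by 0.42 (adjusted p = 0.0102), and no other combination of member and strain passed.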

How the results depend on the processing

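The mean responses of Nefh, Ina and Vim kept their direction and passed in all 89 settings tried (Nefh -0.50 to -0.38, Ina 0.36 to 0.49, Vim 0.55 to 0.64). Nefm (-0.38 to -0.29) and Nes on its brighter probe (0.28 to 0.45) passed in all but the test of a fold of at least 1.2, and Prph (-0.12 to -0.05) did not pass in 11. The dimmer Nes probe is not part of these settings, and its mean response of 0.11 did not pass (limma, adjusted p = 0.262). The counts that follow cover all 7 members, Nefl included, although its probe was near background. With a fold of at least 1.2, 3 members passed as a mean over strains, and 9 combinations passed in single strains and 4 in naive levels. Members with a strain difference in the response numbered 1 with median scaling, 1 without DBA and 1 without NZO. They numbered 3 with array weights and 3 with runs as a block, and 1 to 3 when single arrays were left out. Combinations with a response apart from the other strains numbered 0 with median scaling, 0 with that fold, 2 with array weights and 2 with runs as a block, and 0 to 2 when single arrays were left out. Leaving out single arrays gave 6 to 7 members past the threshold, 25 to 32 calls in single strains, 19 to 24 naive calls, 5 to 6 members with a naive strain difference and 5 after axotomy. Replicate number as a block, although pairing by number was not established, gave 7 members, 29 calls in single strains, 21 naive calls and 16 pairs. The main fit gave 21 naive calls apart from Nefl, and the Nefl call in CAST comes on top of these. Median scaling gave 36 calls in single strains. The stricter filter removed Nefl, whose probe was near background and gave a limit on its fold in CAST alone. The increase of Ina in C3H was lost with the authors' matrix (0.30, adjusted p = 0.0535), without background correction (0.30, 0.0531), with median scaling (0.37, 0.118) and with C3H arrays alone (0.42, 0.212). That of Vim in NOD was lost with NOD arrays alone (0.124). The causes were not tested.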
